A study of Talaromyces pinophilus with 6 samples.

Results

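Described here are 23 genes that the study called changed between the *Talaromyces pinophilus* strains Δ*TP05746* and Δ*TpKu70*, out of 11632 genes listed in the deposited files. Each carries an annotation of a protease, a peptidase, ubiquitin, the proteasome or autophagy. They were found by those words in the 1998 rows at hand of the study's table of changed genes. Left out were genes marked there as transcription factors or carbohydrate-active enzymes and the gene run *TP04961* to *TP04966*. The study called more genes changed than these rows hold, so the numbers of genes found by annotation are not complete. Because the table was chosen on the same contrast, the differences between the strains are given below as a description, with no p-value, and they support nothing on their own. The study asked what the Zn2Cys6 transcription factor TP05746 controls. Both strains lack *TpKu70*, a gene of DNA end joining, in the background of strain 1–95, and Δ*TP05746* lacks *TP05746* as well. RNA was sequenced from 3 libraries of each strain, made from mycelium taken 12 h after it was moved out of glucose medium and given 1% (w/v) soluble corn starch. The sources used here say neither which transformant was sequenced nor whether each library had its own culture, so the spread between libraries may be technical.

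Ubiquitin is a small protein that cells attach to other proteins in a cascade: an activating enzyme passes it to a conjugating enzyme (E2), and a ligase (E3) picks the protein that receives it, while deubiquitinating enzymes take it off again. Proteins that carry chains of ubiquitin are broken down by the proteasome, whereas autophagy delivers larger cargo and organelles to the vacuole of fungi. Peptidases act elsewhere too, for example on the signal peptides of proteins entering the secretory pathway, which filamentous fungi use heavily for extracellular enzymes.

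The libraries held 4091718 to 4190623 expected counts (RSEM's estimate of the fragments from each gene) in Δ*TP05746* and 4600785 to 4696455 in Δ*TpKu70*. The files list only genes above 0, and a gene with no entry for a library is given here as 0. Of the 1998 rows at hand, 217 have no entry in any of the 6 files used here. A missing entry may therefore not always stand for 0, which bears on every 0 and every fold bound below. The deleted gene *TP05746* was listed in no Δ*TP05746* library and had 28 to 135 counts in Δ*TpKu70*. The 10 most abundant genes took 7.48% to 8.58% of the counts in Δ*TP05746* and 15.2% to 22.98% in Δ*TpKu70*. Levels are given as CPM, counts relative to the library size after scaling with TMM factors. These factors assume that most genes do not differ, which was not tested here. They were 1.31 to 1.37 in Δ*TP05746* and 0.667 to 0.877 in Δ*TpKu70*. FPKM, which also divides by gene length but has no such factor, is used where genes are compared with each other. Library totals in place of TMM factors moved the median over the log2 fold changes of the 8522 genes tested to 0.85, against 0.03 with TMM. Δ*TpKu70* replicate 1 stood apart from the other 2 Δ*TpKu70* libraries, and it lay between them and all Δ*TP05746* libraries for 37.1% of genes tested and for 7 of the 17 protease, ubiquitin and autophagy genes tested. The conidial genes *RodA* (*TP05897*), *WetA* (*TP05733*) and *VosA* (*TP10901*), which would mark spores in the mycelium, summed to 12.4 to 22.0 CPM in Δ*TP05746* and 17.8 to 34.6 CPM in Δ*TpKu70*. These genes did not go the same way, with log2 fold changes of −3.33 for *RodA*, −1.11 for *WetA* and 1.24 for *VosA*. For *VosA* the strains overlapped in CPM and for *WetA* in FPKM. *RodA* had no entry in 2 Δ*TP05746* libraries and only 3, 5 and 7 counts in Δ*TpKu70*. The study lists all 3 genes as changed in Δ*TP05746* and reports that TP05746 bound the *WetA* promoter in vitro. Their levels therefore cannot tell fewer spores apart from changed expression of these genes. The part of spores in the results was not tested.

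Transcript levels of these genes differed between the strains in both directions. *TP00508*, annotated as a NEDD4-like E3 ubiquitin ligase, was the most abundant of them in Δ*TP05746* at 209.6 ± 59.6 FPKM, against 3.06 ± 2.04 FPKM in Δ*TpKu70* (SD, n = 3 each), while *TP03962*, with a ubiquitin and a WLM domain, led in Δ*TpKu70* and had 103 ± 43.1 FPKM in Δ*TP05746*, against 163 ± 36.3 FPKM in Δ*TpKu70*. Of the 23 genes, *TP01631* (ubiquitin carboxyl-terminal hydrolase) and *TP04718* (ubiquitin ligase, Sel1/Ubx2) have no row in the files used here and were not analysed. Another 4 (*TP01849*, *TP03437*, *TP04123* and *TP05812*) did not reach an FPKM of 1 in at least 3 libraries. The remaining 17 entered the fit across all genes (edgeR's quasi-likelihood test), in which 10 were higher and 5 lower in Δ*TP05746*. The limits were an adjusted p no greater than 0.05 and a log2 fold change of 1 or more in either direction, and without Δ*TpKu70* replicate 1 the same limits again gave 10 higher and 5 lower. Among all genes tested 18.2% were higher and 20.5% lower by the same limits, together 38.7%, and since the 17 were chosen on this contrast nothing is read from their count. Their median log2 fold change was 1.34, against 0.03 for all genes, and for the same reason nothing is read from it. Setting the 3 genes at 0 in Δ*TpKu70* to their lower bounds could not move this median, because the bounds still lie above it. In 16 of the 17 the libraries of the strains did not overlap in CPM, 11 higher and 5 lower in Δ*TP05746*. This held for 62.0% of all genes tested, 32.1% higher and 29.9% lower. In RNA from whole mycelium, fewer cells that express a gene cannot be told apart from less of its RNA per cell.

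**Figure D1:**
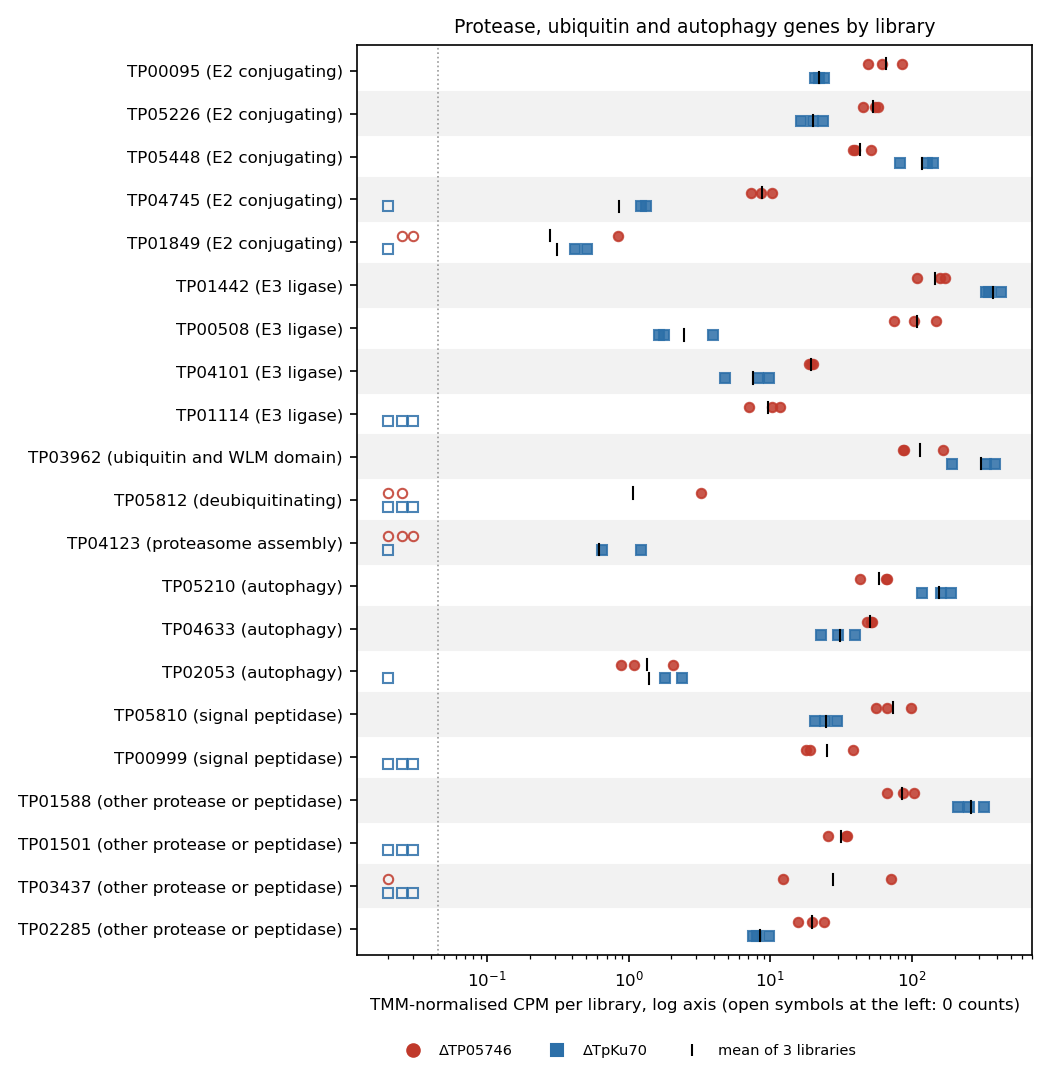
TMM-normalised CPM (log axis) of the 21 genes with a row in the files, one point per library (circles Δ*TP05746*, squares Δ*TpKu70*), with the mean of the 3 libraries as a vertical bar and libraries at 0 counts as open symbols left of the dotted line. The strains lie apart for 16 genes, with *TP00508* at 74.2 to 148 CPM in Δ*TP05746* and 1.63 to 3.94 CPM in Δ*TpKu70*, and 5 genes had no entry in any Δ*TpKu70* library and are drawn at 0.

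Among the 5 genes of E2 conjugating enzymes, 3 were higher, 1 was lower and 1 was too low to test. *TP00095* had 85.1, 49.4 and 61.6 CPM in the Δ*TP05746* libraries, against 22.2, 20.5 and 23.8 CPM in Δ*TpKu70*. All Δ*TP05746* libraries were above all Δ*TpKu70* libraries, with a log2 fold change of 1.56 (standard error 0.25). *TP05226* had 45.4, 55.2 and 57.8 CPM in Δ*TP05746*, against 19.96, 16.4 and 23.5 CPM in Δ*TpKu70*, likewise without overlap, and its log2 fold change was 1.40 (standard error 0.22). These were the most abundant of the 5 E2 genes in Δ*TP05746*, at 173 ± 36.5 and 127 ± 22.2 FPKM there (SD, n = 3). *TP05448*, also an E2, went the other way, with 38.5, 39.4 and 51.1 CPM in Δ*TP05746*, against 82.5, 127 and 141 CPM in Δ*TpKu70* (log2 fold change −1.44, standard error 0.25). It was the most abundant of the 5 in Δ*TpKu70* and had 68.8 ± 12.5 FPKM in Δ*TP05746*, against 111 ± 15.997 FPKM in Δ*TpKu70* (SD, n = 3 each). E2 genes outside the rows at hand were not ranked. The sum over the 5 E2 genes depended on the scale. In FPKM it was 352 to 401 in Δ*TP05746* and 168 to 189 in Δ*TpKu70*, whereas in CPM with TMM factors it was 151 to 181 in Δ*TP05746* and 125 to 189.9 in Δ*TpKu70*, and the strains overlapped. *TP04745* was low in both strains, with 46.4, 41.9 and 57.2 expected counts in Δ*TP05746* and 0, 4.44 and 3.77 in Δ*TpKu70* (log2 fold change 3.42, standard error 0.77). Without Δ*TpKu70* replicate 1, the library at 0, its log2 fold change was 2.77 and still past the threshold. The counts of *TP04745* have decimals, which arise where RSEM divides reads between gene models and leave its level uncertain. The same holds for *TP01849*, which had 4.48, 0 and 0 counts in Δ*TP05746*, against 0, 1.41 and 1.56 in Δ*TpKu70*, too few to compare.

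Of the 4 genes of E3 ligases with a row in the files, 3 were higher and 1 lower in Δ*TP05746*. NEDD4-type ligases are HECT ligases, which hold ubiquitin themselves before passing it on, and Rsp5 is the member of that family in *Saccharomyces cerevisiae*, where it tags membrane transporters for removal. The NEDD4-like gene *TP00508* had 148, 74.2 and 104 CPM in Δ*TP05746*, against 3.94, 1.79 and 1.63 CPM in Δ*TpKu70* (log2 fold change 5.42, standard error 0.45). The strains lay far apart, and its counts were whole in all 6 libraries. The effective length of *TP00508*, derived from counts and FPKM, was only 670 bases, and whether it codes for a whole ligase was not tested. *TP04101*, annotated only as a ubiquitin-protein ligase, had 19.98, 19.4 and 18.7 CPM in Δ*TP05746*, against 9.86, 4.76 and 8.17 CPM in Δ*TpKu70* (log2 fold change 1.34, standard error 0.33). It was no longer past the threshold without Δ*TP05746* replicate 2 or 3. *TP01442*, with the same annotation, was the most abundant of these 4 in Δ*TpKu70* and had 108, 159 and 171 CPM in Δ*TP05746*, against 428, 353 and 333 CPM there, again without overlap (log2 fold change −1.35, standard error 0.24). *TP01114* is annotated as GRR1, the F-box protein that in *S. cerevisiae* selects targets for an SCF ubiquitin ligase, cyclins and glucose-signalling proteins among them. It had 62.6, 58.8 and 38.9 expected counts in Δ*TP05746* and no entry in any Δ*TpKu70* library. Read as 0, this makes it at least 11.1-fold higher in Δ*TP05746* against a floor of 3 counts per library, a bound that covers counting error only. Its counts have decimals.

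*TP03962* joins a ubiquitin domain to a WLM domain, the metalloprotease domain of Wss1 of *S. cerevisiae*, which acts in the removal of proteins crosslinked to DNA. It had 85.9, 87.6 and 167 CPM in Δ*TP05746*, against 192, 336 and 387 CPM in Δ*TpKu70*. The strains did not overlap in CPM, but Δ*TP05746* replicate 3 and Δ*TpKu70* replicate 1 came close to each other, and in FPKM the strains overlapped (log2 fold change −1.43, standard error 0.38). Without Δ*TP05746* replicate 1 or 2 or Δ*TpKu70* replicate 2 or 3 it was no longer past the threshold, at log2 fold changes of −1.26, −1.27, −1.35 and −1.24. The deubiquitinating enzyme gene *TP05812* had 17.8 expected counts in Δ*TP05746* replicate 3 and no entry in the other 5 libraries. *TP04123*, annotated as a maturation protein of the core proteasome, had 0 counts in each Δ*TP05746* library, against 0, 2.17 and 3.72 in Δ*TpKu70*. No difference was detectable for either gene at this depth, and both have decimals in their counts.

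None of the 3 autophagy genes was higher past the threshold, and 1 was lower. *TP05210*, annotated as an autophagy regulatory protein, had 42.9, 66.2 and 65.6 CPM in Δ*TP05746*, against 119, 161 and 189 CPM in Δ*TpKu70* (log2 fold change −1.42, standard error 0.26). Every Δ*TP05746* library was below every Δ*TpKu70* library. *TP04633* had 51.1, 51.9 and 48.2 CPM in Δ*TP05746*, against 22.96, 39.8 and 30.01 CPM in Δ*TpKu70*, also without overlap, with a log2 fold change of 0.70 (standard error 0.24) that lay under the fold minimum. With library totals it was 1.55 and past the threshold. *TP02053* was near the limit of detection, with 4.71, 6.27 and 11.4 expected counts in Δ*TP05746* and 0, 7.99 and 5.50 in Δ*TpKu70*, and the strains overlapped (log2 fold change −0.07, standard error 0.95). Both *TP04633* and *TP02053* have decimals in their counts.

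The signal peptidase removes the signal peptide from proteins as they enter the endoplasmic reticulum. The 2 genes found with this annotation were both higher in Δ*TP05746*. Genes of the enzyme outside the rows at hand were not looked at. *TP05810*, annotated as a subunit of the microsomal enzyme, had 99.1, 55.7 and 67.1 CPM in Δ*TP05746*, against 29.6, 24.4 and 20.6 CPM in Δ*TpKu70*, and its counts were whole (log2 fold change 1.57, standard error 0.28). *TP00999* had 204, 108 and 98.2 expected counts in Δ*TP05746* and no entry in any Δ*TpKu70* library. Read as 0, it was at least 28.7-fold higher against the floor, with counts that have decimals.

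Of the other proteases and peptidases, 2 were higher, 1 was lower and 1 was not tested. Methionine aminopeptidase takes the first methionine off new proteins. Its gene *TP01501* had 137, 199 and 188 expected counts in Δ*TP05746* and no entry in any Δ*TpKu70* library, which read as 0 makes it at least 36.2-fold higher, and its counts have decimals. *TP02285*, a subunit of the protease of the mitochondrial inner membrane, which trims proteins sorted to the intermembrane space, had 23.9, 15.8 and 19.6 CPM in Δ*TP05746*, against 9.86, 8.03 and 7.51 CPM in Δ*TpKu70* (log2 fold change 1.22, standard error 0.28). This was the smallest change past the fold minimum, and it was no longer past the threshold without Δ*TP05746* replicate 3. Dipeptidyl peptidases release dipeptides from the start of a protein chain. *TP01588* of this kind had 67.1, 86.4 and 103 CPM in Δ*TP05746*, against 322, 209.9 and 253 CPM in Δ*TpKu70* (log2 fold change −1.61, standard error 0.25), the largest decrease among the 17 genes, with decimals in its counts. The serine protease gene *TP03437* had 0, 69.8 and 395 expected counts in the 3 Δ*TP05746* libraries and no entry in Δ*TpKu70*, so replicate 3 sets its mean and replicate 1 does not differ from Δ*TpKu70*. It was not tested because too few libraries reached an FPKM of 1.

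The scaling between libraries decided how the decreases read. With TMM factors the 5 lower genes had log2 fold changes of −1.61 to −1.35, and with library totals −0.81 to −0.54. They were thus lower on both scales, but none reached the fold minimum with library totals or in limma on log2(FPKM + 1). The 10 higher genes had log2 fold changes of 1.22 or more with TMM factors and 2.02 or more with library totals, and all 10 were past the threshold on both scales, with *TP04633* as an additional gene on the second. The split was therefore 10 higher and 5 lower with TMM factors and 11 higher and 0 lower with library totals, where 3290 of all genes were higher and 1059 lower, against 1550 and 1749 with TMM. The log2 ratio of the mean FPKM, the fold used in the study's methods, behaved like the library totals. On that scale the gene just inside the minimum was *TP04633* at 1.45 and the gene just outside was *TP01588* at −0.90. The 5 lower genes had ratios of −0.90 to −0.63 and *TP02053* had 0.79, all under the fold minimum of 1 in the study's methods. The study lists them as changed, so its calls for these genes were not reproduced from the values used here. The cause was not tested. The sum over the 21 genes changed its order with the scale: it made up 0.115% to 0.143% of the counts in Δ*TP05746* and 0.0936% to 0.110% in Δ*TpKu70*, but amounted to 845 to 1082 CPM with TMM factors in Δ*TP05746* and 1262 to 1423 CPM in Δ*TpKu70*.

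**Figure D2:**
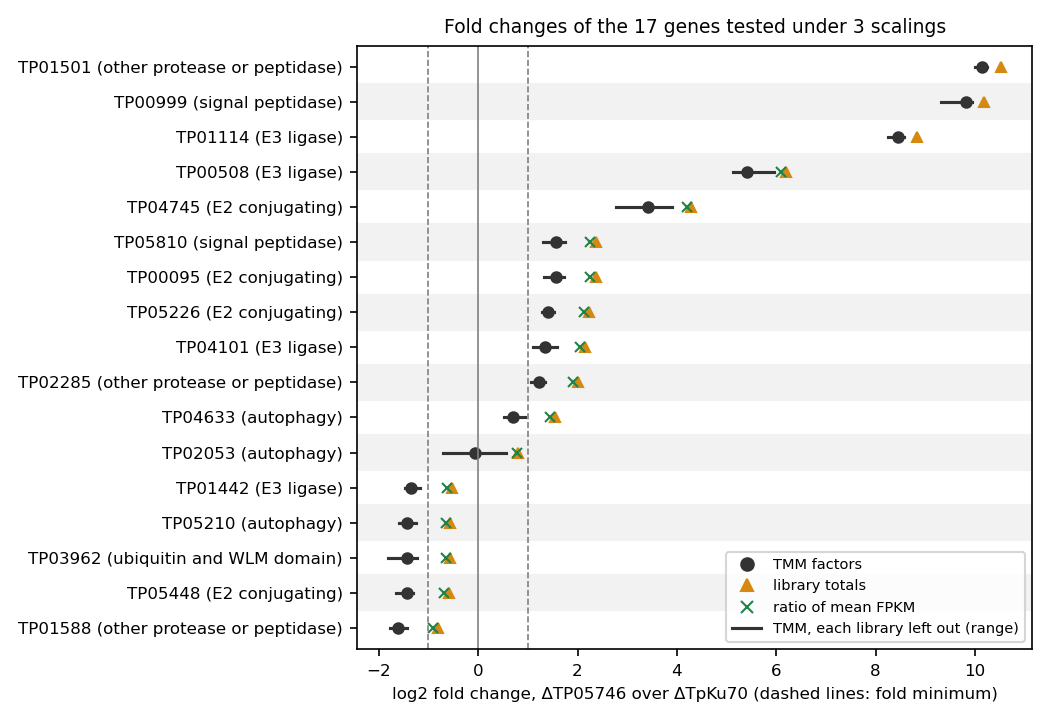
Log2 fold change (Δ*TP05746* over Δ*TpKu70*) of the 17 genes tested, with TMM factors (circles; the line is the range with each library left out), with library totals (triangles) and as the ratio of mean FPKM (crosses, not drawn for the 3 genes at 0 in Δ*TpKu70*, whose fitted values are no bounds). The 10 higher genes lie above the fold minimum under each scaling drawn, whereas the 5 lower genes lie beyond it with TMM factors only.

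The spread within a strain differed from gene to gene. Over the 14 genes tested that had counts in both strains, the median coefficient of variation was 22.0% in Δ*TP05746* and 24.5% in Δ*TpKu70*, against 16.7% in Δ*TP05746* and 30.7% in Δ*TpKu70* over the 8365 such genes among all tested. *TP04101* and *TP04633* had the smallest values in Δ*TP05746*, at 3.41% and 3.85%. With 3 libraries such small values can arise by chance, and they were not compared with counting error. Counts with decimals occurred in 11 of the 21 genes, among them all 5 that had no entry in any Δ*TpKu70* library. Among all genes tested 18.8% had decimals, while the 21 include 4 genes that were not tested. Of the 15 genes past the threshold, 10 had whole counts in every library, 6 of them higher and 4 lower. Among these 6 higher genes, 5 had effective lengths of 472 to 847 bases as derived from counts and FPKM (*TP00095*, *TP02285*, *TP05226*, *TP00508* and *TP05810*), while *TP04101* had 5416 bases. The 4 lower genes with whole counts spanned 799 bases (*TP05448*) to 9715 bases (*TP05210*), with *TP03962* at 1413 and *TP01442* at 4712 bases. Lengths over all genes were not compared, so nothing is read from these lengths.

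The rows at hand hold 3 further genes whose annotation has one of the words but which the choice left out. *TP05202*, marked as a transcription factor for a winged helix, is annotated as a methionine aminopeptidase like *TP01501* and had 128, 134 and 136 CPM in Δ*TP05746*, against 449, 649 and 689 CPM in Δ*TpKu70* (log2 fold change −2.17, standard error 0.24). With the missing entries of *TP01501* read as 0, the genes annotated as methionine aminopeptidase thus differed in opposite directions. The counts of *TP01501* have decimals, which leave its level uncertain. *TP04962* (dipeptidase) and *TP04963* (γ-glutamyltranspeptidase) belong to the gene run left out and had log2 fold changes of −1.36 and −6.51, the second −7.23 without Δ*TP05746* replicate 1.

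Other genes of protein breakdown were taken from the rows at hand by the words aspergillopepsin, F-box, RING finger and Apc13. This gave 8 genes, of which 5 have a row in the files. All 5 were tested, and 2 were higher and 3 lower, where 18.2% of all genes tested were higher and 20.5% lower. Since these genes come from the table of changed genes, nothing is read from their count. Aspergillopepsins are acid proteases that *Aspergillus* species secrete, and the 4 genes of this name with a row in the files split evenly. *TP02431*, also of this name, has no row there. *TP02569* had 27.3, 19.1 and 21.4 CPM in Δ*TP05746* and no entry in Δ*TpKu70*, which read as 0 makes it at least 25.9-fold higher, with whole counts. *TP00832* had 137, 46 and 67 expected counts in Δ*TP05746*, against 0, 1 and 0 in Δ*TpKu70*. *TP03441* had 3.36, 0.876 and 1.81 CPM in Δ*TP05746*, against 37.7, 8.63 and 11.4 CPM in Δ*TpKu70* (log2 fold change −3.25, standard error 0.76), and *TP04194* had a log2 fold change of −1.13 (standard error 0.32) that was past the threshold with all 6 libraries and without Δ*TpKu70* replicate 1, but with no other library left out. It was also not past it with the replicate number as a block (−1.12) or with no filter (−1.10). *TP03441* was no longer past it without Δ*TP05746* replicate 3. Leaving out its highest library, Δ*TpKu70* replicate 1, gave it a log2 fold change of −2.31. The RING finger gene *TP05043*, of a domain found in many E3 ligases, had 2.05, 1.93 and 2.54 CPM in Δ*TP05746*, against 6.16, 7.14 and 4.90 CPM in Δ*TpKu70*, and was no longer past the threshold without Δ*TP05746* replicate 2. With library totals only *TP03441* of the 3 lower genes was past the threshold.

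Chaperones fold proteins that would otherwise be degraded. The words heat shock, DnaJ, Hsp70, chaperonin and co-chaperone gave 8 genes in the rows at hand. Of these, 7 have a row in the files and 6 were tested. In Δ*TP05746* 3 were higher and 3 lower, where 18.2% of all genes tested were higher and 20.5% lower. They too come from the table of changed genes, so nothing is read from these counts. *TP01942*, annotated as BiP/Kar2, the Hsp70 chaperone of the endoplasmic reticulum, had 957, 884 and 936 CPM in Δ*TP05746*, against 350.1, 264 and 199.6 CPM in Δ*TpKu70* (log2 fold change 1.77, standard error 0.27), with decimals in its counts. *TP05017* (mitochondrial co-chaperone) and *TP04989* (DnaJ domain) had log2 fold changes of 1.51 and 1.34, the second of which was no longer past the threshold without Δ*TP05746* replicate 1. The heat shock protein genes *TP03607* and *TP00197* were lower in Δ*TP05746*, with 662, 511 and 826 CPM for *TP03607*, against 1028, 1758 and 2687 CPM in Δ*TpKu70*, and log2 fold changes of −1.45 and −1.13. *TP01110* (DnaJ domain) had a log2 fold change of −1.78. *TP03607* was past the threshold only with all libraries or without Δ*TpKu70* replicate 1, and *TP00197* only with these and without Δ*TP05746* replicate 3. None of these 3 was past the threshold with library totals.

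**Figure D3:**
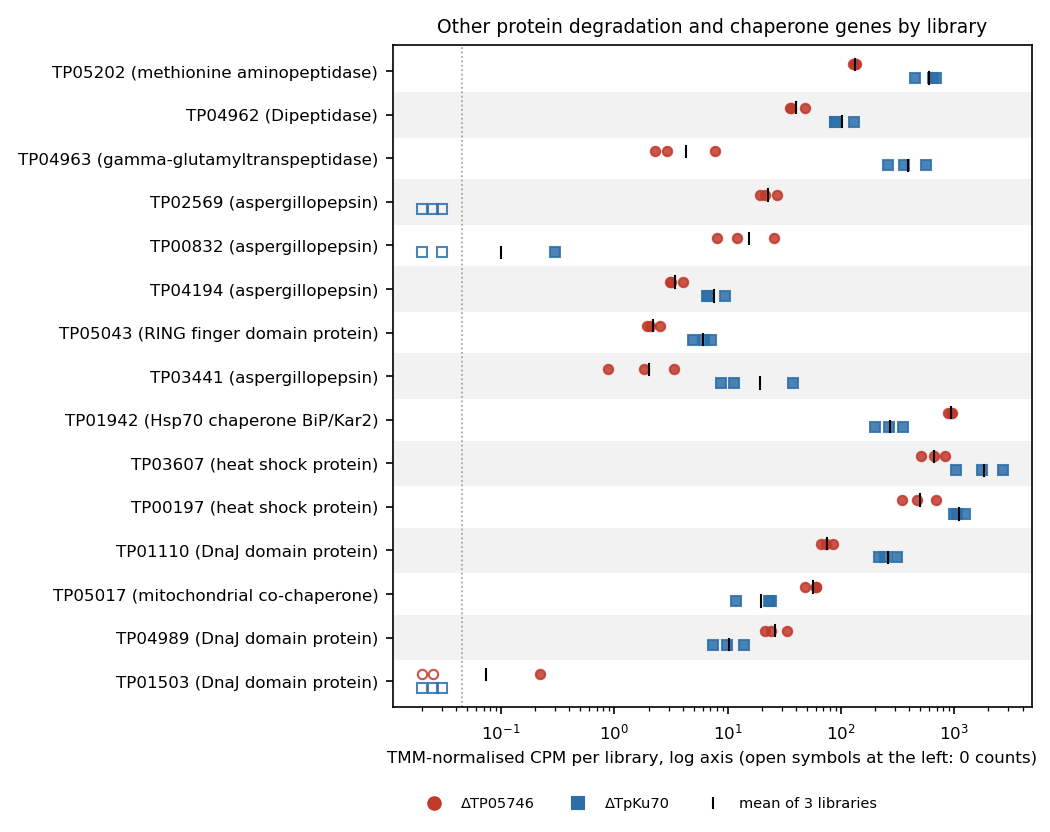
TMM-normalised CPM (log axis) of the genes outside the choice: the 3 left out by its terms, the 5 other protein degradation genes and the 7 chaperone genes, one point per library (circles Δ*TP05746*, squares Δ*TpKu70*), with the mean of the 3 libraries as a vertical bar and libraries at 0 counts as open symbols left of the dotted line. *TP02569* and *TP00832* lie far higher in Δ*TP05746*. *TP04963* lies far lower there (log2 fold change −6.51), and *TP05202* and *TP03441* lie lower.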

How the data were processed

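The deposited files give, for each library, expected counts that the authors obtained with RSEM 1.2.12 (the submitters' processing notes also name BWA 0.7.10-r789 and Bowtie2 2.1.0) on the strain 1–95 genome, not scaled, and the authors' FPKM. Only genes above 0 are listed, so an unlisted gene was read as 0, whereas genes with no row in any file were not analysed. Genes of this second kind include 217 of the 1998 rows at hand, which are a part of the study's table of changed genes. An unlisted gene may thus not always be at 0. Libraries were grouped by strain from the labels. Expected counts were rounded, genes reaching 1 FPKM in 3 or more of the 6 libraries were kept (8522), and Δ*TP05746* was compared with Δ*TpKu70* with edgeR 4.0.16 (TMM factors, two-sided quasi-likelihood test, Benjamini-Hochberg over all genes kept) in R 4.3.3. Standard errors, which are rough, were derived from each gene's log2 fold change and F statistic. Alternatives used limma 3.58.1 and DESeq2 1.42.0. Bounds for genes at 0 use a floor of 3 counts per library and cover counting error only. All 23 genes chosen by annotation are named, with the genes of 2 further lists; the genes and lists were chosen with earlier results of these data known. The study's fold changes and p-values were not used, and no gene ID matched the reference table, so no sequence or position is given.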

Additional observations from a re-analysis of the deposited data

How the results depend on the processing

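The 10 higher and 5 lower genes were again 10 and 5 with median-ratio factors, DESeq2 and no filter (which left 2 lower protein degradation genes, without *TP04194*), and 8 and 5 with an FPKM filter of 5. Higher genes numbered 11 with library totals, both limma fits and the ratio of mean FPKM, 6 in a test against the fold minimum and 6 without genes that have decimals in their counts, and 8 to 10 with a library left out. Lower genes numbered 0 with library totals, limma on log2(FPKM + 1) or log2(FPKM + 0.1) and the ratio of mean FPKM, 1 in the test against the fold minimum, and 4 to 5 with a library left out. *TP02053* changed sign, to 0.80 with library totals, 0.61 and 1.55 with limma on log2(FPKM + 1) and log2(FPKM + 0.1), 0.79 as the ratio of mean FPKM, 0.15 with the replicate block and, with a library left out, between −0.72 and 0.55. Other protein degradation genes that were lower numbered 1 with library totals, both limma fits, the ratio of mean FPKM and the test against the fold minimum, and 1 to 3 with a library left out. Chaperone genes that were lower numbered 0 with library totals, 1 with the other 4 of these settings and 1 to 3 with a library left out, and the higher ones numbered 1 in the test against the fold minimum and 1 without genes that have decimals. Over all genes, 3290, 3123 and 3232 were higher and 1059, 1069 and 1107 lower with library totals and the 2 limma fits, 2282 and 1266 by the ratio of mean FPKM with unadjusted p, 741 and 1136 in the test against the fold minimum, and 1130 to 2137 and 1434 to 2011 with a library left out, the highest counts being those without Δ*TpKu70* replicate 1. Apart from what follows from scaling or from fewer genes or libraries, the cause was not tested. Replicate numbers did not pair the libraries (correlations of deviations −0.08, −0.04 and 0.01), and with the replicate as a block 10 of the genes were higher and 5 lower, with 2 and 2 of the other protein degradation genes, where *TP04194* was no longer called, and 1380 and 1512 over all genes. At these depths genes with few counts in every library, such as *TP02053*, could not be compared.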
